A study of Mus musculus with 8 samples.

Results

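The 10 genes of triglyceride breakdown in adipocytes examined here were the neutral lipases Pnpla2, Lipe and Mgll, the lipase regulators Abhd5, G0s2 and Plin1, the carboxylesterases Ces1d and Ces1f, the glycerol channel Aqp7 and the adipocyte galectin Lgals12. They were chosen by symbol, and 9 of the 10 were measured, out of 18193 genes in all. Plin1 had no probe set paired with it alone in the platform annotation, so it was not analysed here. The 9 measured genes were covered by 20 single-symbol probe sets, and each gene was represented by the probe set with the highest mean over the 8 arrays. Ces1f and Lgals12 entered the list because they had stood among the largest KO minus WT differences in these same arrays. Their differences are therefore given as a description, without a test. The remaining genes belong to it by function, but the list was also made with this contrast known.

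The samples were inguinal white adipose tissue, the subcutaneous fat of the groin, from 4 Lpar4-deficient males (LPA4-KO, Lpar4 -/Y) and 4 wild-type males. All were C57BL/6 littermates aged 12 weeks on standard chow, with no further treatment. Lpar4 lies on the X chromosome and encodes a receptor that binds the signalling lipid lysophosphatidic acid. The labels give neither the deleted part of the gene nor a tissue-restricted deletion. Each mouse gave 1 array, so the SD within a genotype is the spread between mice. Values are log2 signals and every difference is KO minus WT.

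In fat cells triglyceride is taken apart one fatty acid at a time. Adipose triglyceride lipase (Pnpla2) removes the first, hormone-sensitive lipase (Lipe) the second and monoacylglycerol lipase (Mgll) the last, which leaves glycerol to exit through aquaglyceroporins such as Aqp7. Abhd5 (CGI-58) activates Pnpla2 and G0s2 inhibits it, while perilipin 1 (Plin1) on the droplet surface holds Abhd5 back until protein kinase A phosphorylates the coat. Ces1d and Ces1f are carboxylesterases with triglyceride hydrolase activity in mouse tissues, and Lgals12 is a galectin found on adipocyte lipid droplets, where it restrains lipolysis in mice.

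The stretch before the start of the gene is printed for the lipase that begins the pathway and for its activator and inhibitor, since these are the 3 genes whose balance sets that step. Sequences are from RefSeq, build GRCm38.p6, 5′ to 3′ on the gene's own strand, and each holds the 250 bases before the annotated start. Capitals mark the nuclear receptor half-site AGGTCA and the cAMP response element half-site TGACG, searched on both strands, with no overlap between them. Pnpla2 lies on the plus strand at chr7:141454938-141455187, Abhd5 on the plus strand at chr9:122351366-122351615 and G0s2 on the minus strand at chr1:193273189-193273438.
Pnpla2: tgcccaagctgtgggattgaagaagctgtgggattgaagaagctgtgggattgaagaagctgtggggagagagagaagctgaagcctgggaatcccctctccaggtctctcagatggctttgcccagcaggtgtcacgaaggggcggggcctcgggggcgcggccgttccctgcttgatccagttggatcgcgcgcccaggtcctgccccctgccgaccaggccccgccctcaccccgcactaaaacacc
Abhd5: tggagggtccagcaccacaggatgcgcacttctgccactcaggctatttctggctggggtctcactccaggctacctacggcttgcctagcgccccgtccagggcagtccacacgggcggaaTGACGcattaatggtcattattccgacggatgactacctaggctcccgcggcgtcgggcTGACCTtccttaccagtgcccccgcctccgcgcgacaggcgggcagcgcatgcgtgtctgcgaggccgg
G0s2: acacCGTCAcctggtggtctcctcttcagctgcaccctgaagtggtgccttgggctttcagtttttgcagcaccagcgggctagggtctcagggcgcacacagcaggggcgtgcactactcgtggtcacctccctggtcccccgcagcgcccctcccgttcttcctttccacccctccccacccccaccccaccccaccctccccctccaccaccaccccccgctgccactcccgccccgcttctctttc
The Abhd5 window held 1 match of each motif, with AGGTCA read on the opposite strand and so printed as TGACCT, that of G0s2 held 1 TGACG on the opposite strand, printed as CGTCA, and that of Pnpla2 held neither. Over all 32851 windows of this length, 14.0% held AGGTCA and 17.8% held TGACG. A match is a description of the letters only, and the arrays did not measure binding. The promoter table matched 7 of the 10 genes. Ces1d, Ces1f and Lgals12 were not among them.

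The arrays had medians of 6.73 to 6.74. Most deposited values barely moved: 21.3% of the probe sets had an SD over the 8 arrays of at least 0.01, called varying here, and 5173 of the 18193 genes varied. The near-constant genes included bright ones, such as Lpl at 13.86 and Fabp4 at 13.49 in both genotypes. A near-constant value is therefore not read as an unchanged transcript. Lpar4 probe set 1452424_at was at 5.74, 5.91, 5.81 and 5.78 in KO and at 6.80, 6.98, 6.89 and 7.04 in WT, whereas 1439665_at and 1434186_at were higher in KO by 0.53 and 0.71. Which of these lies in the deleted part is not known here. The 3 18S ribosomal RNA control probe sets were 0.44, 0.22 and 0.28 higher in KO, with no overlap of the genotypes, and their part in the results below was not tested. Every measured gene of the set varied, through 15 varying probe sets. The other 5 probe sets, 1 each of Pnpla2, Lipe, Mgll, Abhd5 and Aqp7, were near constant.

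Ces1f and Lgals12 were higher in KO fat, while the 3 classical lipases and the regulators Abhd5 and G0s2 overlapped between genotypes. In the limma fit over all genes, 2 of the 9 measured genes passed an adjusted p of 0.05, against 4.03% of all genes (2.39% higher and 1.64% lower in KO), and both were higher in KO. These 2 are the genes that had been chosen for this difference, so nothing is read from the count. The genotypes did not overlap in the same 2 genes, while among all varying genes 33.2% did not overlap (18.2% with KO above WT, 15.0% below). With the replicate number as a block 0 of all 18193 genes passed in limma, and so 0 of the 9, where 20.4% of all genes and 3 of the 9 had an unadjusted p under 0.05. When only varying genes were tested 2 passed, against 27.1% of those genes without the block and 19.5% with it. The median difference of the 9 genes was 0.02, beside 0.01 over all varying genes. In bulk tissue, fewer cells of a type and less RNA per cell cannot be told apart, and this holds for every value here.

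**Figure D1:**
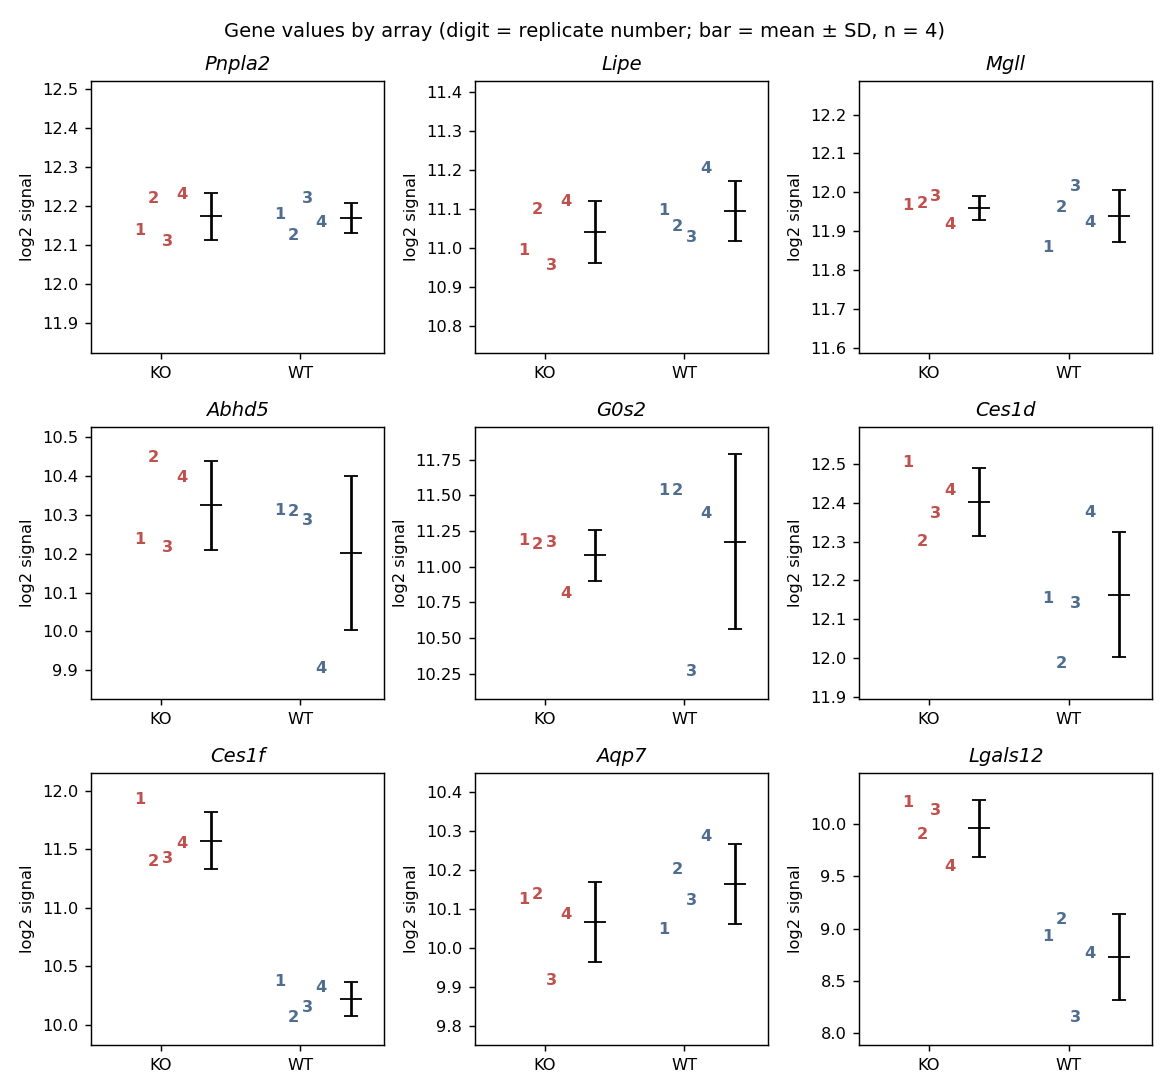
Log2 signal of the 9 measured genes in each array, KO to the left of WT in every panel. Digits are replicate numbers, bars are mean ± SD of 4 arrays, and the vertical range differs between panels; the genotypes separate for Ces1f and Lgals12 and overlap in the other 7.

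The lipase of the first step did not separate the genotypes. Pnpla2 was at 12.14, 12.22, 12.11 and 12.23 in KO, against 12.18, 12.12, 12.22 and 12.16 in WT. All 8 values lay within a narrow band, and every WT value lay inside the KO range of 12.11 to 12.23. The difference was 0.004 (95% interval -0.08 to 0.09, limma adjusted p = 0.960), and its sign turned in 6 alternatives. The value comes from probe set 1428143_a_at, the only varying one of the gene.

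Lipe, which takes the second fatty acid and also cleaves cholesteryl esters, was at 10.99, 11.10, 10.95 and 11.12 in KO and at 11.10, 11.05, 11.03 and 11.20 in WT. KO 1 and KO 3 lay just below every WT array, whereas KO 2 and KO 4 lay among them. The difference was -0.05 (95% interval -0.18 to 0.08, limma adjusted p = 0.618). Mgll, the monoacylglycerol lipase that also degrades the endocannabinoid 2-arachidonoylglycerol, was at 11.97, 11.97, 11.99 and 11.92 in KO and at 11.86, 11.96, 12.02 and 11.92 in WT. Both the lowest and the highest value were WT arrays. The Mgll difference was 0.02 (95% interval -0.06 to 0.11, limma adjusted p = 0.778), on a probe set whose probes are shared with other transcripts (1426785_s_at). Its probe sets 1450391_a_at and 1453836_a_at gave 0.02 and -0.007.

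The 2 regulators of Pnpla2 scattered far more between WT mice than the lipases did, each through a single low array. Abhd5, the co-activator, was at 10.24, 10.45, 10.22 and 10.39 in KO, against 10.31, 10.31, 10.29 and 9.90 in WT. Without WT 4 the genotypes lay side by side: the difference was 0.12 with all arrays (95% interval -0.15 to 0.39, limma adjusted p = 0.576) and 0.02 without that array. Probe set 1417565_at of the same gene showed the same low array, with a difference of 0.28 and WT 4 at 9.12 below all other arrays, the next lowest being 9.67.

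G0s2, the inhibitor, was at 11.18, 11.16, 11.17 and 10.81 in KO, against 11.53, 11.53, 10.26 and 11.38 in WT. WT arrays 1, 2 and 4 lay above every KO array, and WT 3 lay below every one of them. The difference was -0.10 over all arrays (95% interval -0.85 to 0.65, limma adjusted p = 0.893). It was -0.40 without WT 3 (adjusted p = 0.141) and 0.02 without WT 1 or without WT 2. By replicate number it was -0.35, -0.38, 0.90 and -0.56 for numbers 1 to 4. WT 3 also had the lowest Lgals12 value of the 8 arrays and the lowest summed linear signal of 8 macrophage markers (6605), where the KO arrays ranged from 13780 to 15893 and the WT arrays from 6605 to 18033. What that array's makeup contributed was not tested.

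Aqp7, the channel through which glycerol leaves the fat cell, was at 10.12, 10.14, 9.91 and 10.09 in KO and at 10.05, 10.20, 10.12 and 10.29 in WT. KO 3 was the lowest array and WT 4 the highest, and the others interleaved. The difference was -0.10 (95% interval -0.27 to 0.07, limma adjusted p = 0.470) on 1418849_x_at, whose probes may hybridise to other transcripts. The other Aqp7 probe set, 1418848_at, was near constant at 8.36 in KO and 8.35 in WT.

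The 2 carboxylesterases differed in size of change. Ces1f was at 11.92, 11.39, 11.42 and 11.55 in KO, against 10.37, 10.06, 10.15 and 10.31 in WT. The lowest KO array stood above the highest WT array. The difference was 1.35 ± 0.14 (SE, n = 4 each), or 2.55-fold, and by replicate number it was 1.55, 1.33, 1.27 and 1.24. Leaving out 1 array at a time gave differences of 1.23 to 1.41. The single probe set of Ces1f, 1424266_s_at, is of the kind shared between transcripts, so related carboxylesterases can contribute to it.

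Ces1d, the better-studied triglyceride hydrolase of adipose tissue, was at 12.50, 12.30, 12.37 and 12.43 in KO and at 12.15, 11.99, 12.14 and 12.37 in WT. Only WT 4 reached into the KO range, and it exceeded KO 2 and KO 3. The difference was 0.24 (95% interval 0.02 to 0.45), and limma gave an adjusted p of 0.180 across all genes and 0.0722 across varying genes. The other probe sets of Ces1d gave 0.35 (1435370_a_at) and 0.33 (1435371_x_at), again with WT 4 inside the KO range, and neither passed in limma over all probe sets, of which 1.91% did. Within each array, Ces1f minus Ces1d averaged -0.83 (SD 0.17) in KO and -1.94 (SD 0.12) in WT (n = 4 each), so the signals of the 2 probe sets moved unequally by 1.11.

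Ces1d and Ces1f belong to a cluster of 8 Ces1 genes that follow each other on mouse chromosome 8. The order in the GRCm38.p6 gene table is Ces1a, Ces1b, Ces1c, Ces1d, Ces1e, Ces1f, Ces1g and Ces1h. Ces1e, between the 2 genes, and Ces1c, Ces1g and Ces1h were near constant, at 5.88, 6.02, 5.75 and 6.64 in KO and at the same rounded values in WT. Their means lay at percentiles 1.07 to 34.1 of all genes, and they are not read as unchanged. Ces1a and Ces1b were not analysed here. Among 12 carboxylesterases and relatives measured besides Ces1d and Ces1f, with Ces1c, Ces1e, Ces1g and Ces1h counted in, 1 rose and 0 fell. The riser was Ces2g, at 6.72 ± 0.10 in KO and 6.32 ± 0.12 in WT, a KO minus WT value of 0.40 (limma adjusted p = 0.0461). Ces2g was dim, with its mean at percentile 28.7 of all genes. It was the only one of the 12 that varied, and the next difference in size, that of Ces2b, was 0.0004.

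**Figure D2:**
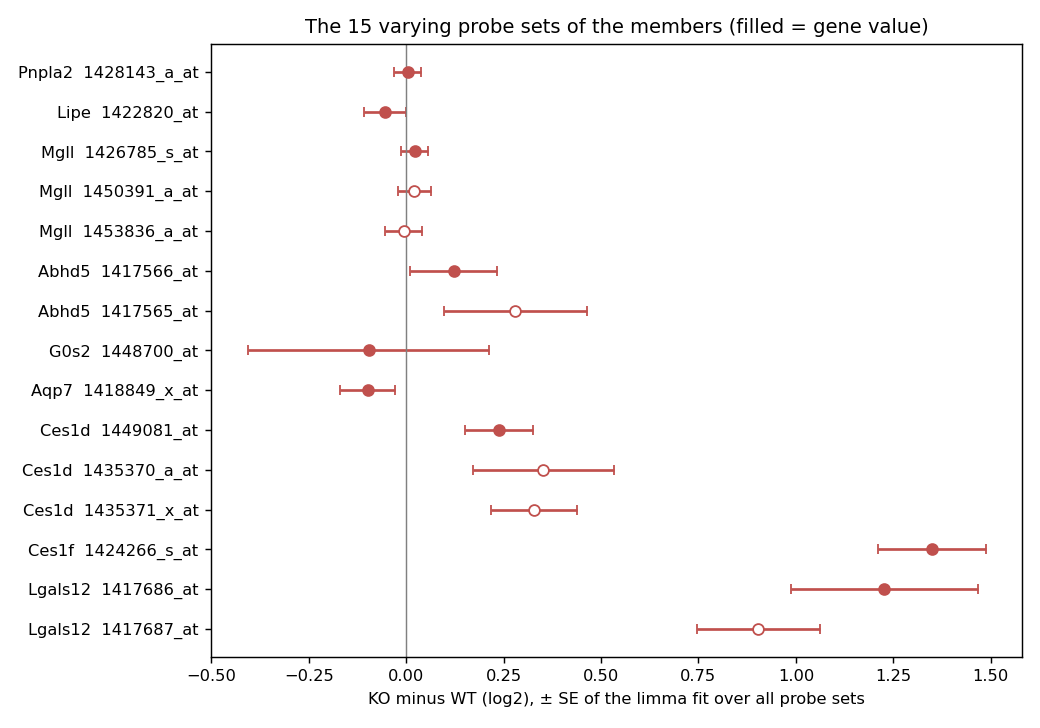
KO minus WT difference in log2 signal (horizontal axis) for the 15 varying probe sets, 1 row each, with the SE of the limma fit over all probe sets. Filled points are the probe sets that represent the gene; Ces1f stands at 1.35 and the Lgals12 probe sets at 1.23 and 0.90, against -0.10 to 0.35 for all others.

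Lgals12 was the other gene with separated genotypes. It was at 10.20, 9.90, 10.13 and 9.60 in KO, against 8.93, 9.09, 8.15 and 8.76 in WT. The lowest KO array lay above the highest WT array, although the spread within each genotype was wide. The difference was 1.23 ± 0.24 (SE, n = 4 each), or 2.34-fold. By replicate number it ran 1.28, 0.81, 1.98 and 0.84, largest for number 3. The second probe set, 1417687_at, also separated the genotypes, with 8.43, 8.20, 8.58 and 8.07 in KO and 7.51, 7.58, 7.08 and 7.49 in WT, a difference of 0.90. In both probe sets KO 4 was the lowest KO array and WT 3 the lowest WT array.

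Leaving out 1 array at a time gave Lgals12 differences of 1.03 to 1.35, the lowest without WT 3. Of 8 further galectins measured, 4 varied. In limma 0 of the 8 passed and 1 had an unadjusted p under 0.05, against 22.9% of all genes. This was Lgals4, a galectin known mainly from gut epithelium, at 8.16 ± 0.19 in KO and 8.65 ± 0.14 in WT (-0.50, adjusted p = 0.0658). Among varying genes Lgals4 did pass (limma adjusted p = 0.0168, or 0.0331 with the replicate block). Lgals3, a macrophage galectin, differed by -0.18 (adjusted p = 0.650).

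**Figure D3:**
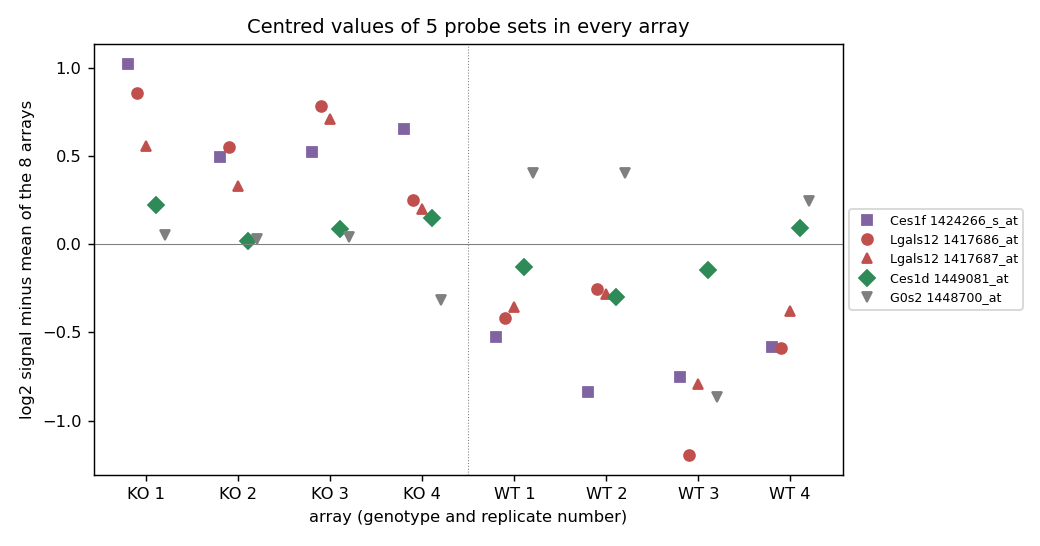
Log2 signal minus its mean over the 8 arrays (vertical axis) for 5 probe sets, KO arrays left of WT arrays. Both Lgals12 probe sets and Ces1f are above 0 in all KO arrays and below 0 in all WT arrays, while G0s2 has its own lowest value in WT 3.

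Profiles like those of Ces1f and Lgals12 were sought among the varying genes by the mean absolute difference between centred log2 values over the 8 arrays. Nearest to Lgals12 were the opsin Opn3 (0.145), the collagen Col14a1 (0.227) and the acyltransferase Gpat3 (0.233), where the median varying gene was 0.609 away. Nearest to Ces1f were the cytochrome P450 Cyp2f2 (0.159), Opn3 (0.162) and the glutathione transferase Gsta4 (0.170), with a median of 0.669. Opn3 was thus close to both. These genes are themselves higher in KO by 0.77 to 1.34, which such a measure favours. Nearest to Ces1d were Slc35a5 (0.0322), the propionyl-CoA carboxylase subunit Pccb (0.0355) and Nubpl (0.0365), an assembly factor of mitochondrial complex I. For G0s2 they were Cbr2 (0.130), Phlda3 (0.135) and the Wnt inhibitor Apcdd1 (0.137). For Pnpla2, Lipe, Mgll, Abhd5 and Aqp7 the closest genes were Clic1, Bsg, Rab6a, Tdrp and Oga.

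The signalling that drives lipolysis showed no gene past the threshold over all genes. Of 27 measured genes for hormone receptors, adenylyl cyclases, protein kinase A subunits, phosphodiesterases and insulin signalling, 0 rose and 0 fell in limma over all genes, and 15 had an unadjusted p under 0.05, against 22.9% of all genes. Of the 27, 20 varied, and such p-values were commoner among varying genes (2254 of 5173 when only these were tested). No excess is therefore read from the 15. The 2 largest differences were those of Hcar1 and Hcar2, receptors for lactate and for ketone bodies and niacin that both inhibit lipolysis in adipocytes. Hcar1 was at 8.38, 7.91, 7.69 and 7.66 in KO and at 7.13, 7.68, 6.92 and 7.13 in WT (0.69, adjusted p = 0.139). Hcar2 was at 8.31, 7.65, 7.60 and 7.73 in KO and at 7.26, 7.42, 6.73 and 7.35 in WT (0.63, adjusted p = 0.162). The median difference was 0.13 over the 20 varying genes of this list, beside 0.01 over all varying genes. The genotypes did not overlap in 7 of those 20 (3 with KO above WT, 4 below), beside 33.2% of all varying genes. When only varying genes were tested, Adcy6 and Hcar1 passed as higher in KO, and Sucnr1, Prkar1a and Pde4d as lower. Their limma adjusted p ran from 0.0243 to 0.0457, in a fit where 27.1% of the varying genes passed.

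Among droplet and fatty acid binding proteins 11 of 14 varied, and 1 of the 14 rose and 0 fell in limma over all genes. The riser was Bscl2 (seipin), which shapes nascent lipid droplets, at 12.36, 12.22, 12.31 and 12.28 in KO and at 12.06, 11.96, 12.09 and 12.07 in WT (0.25, limma adjusted p = 0.0337). Its genotypes did not overlap. Plin5, a perilipin that binds Pnpla2 and Abhd5, was at 9.52 ± 0.32 in KO and 10.04 ± 0.28 in WT, and the difference of -0.51 did not pass (adjusted p = 0.209). When only varying genes were tested, Plin4 passed as lower in KO (-0.18, limma adjusted p = 0.0395) and Cav1 as higher (0.19, limma adjusted p = 0.0483). With the replicate block neither did (0.0829 and 0.0813).

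Of 16 further lipases and monoacylglycerol hydrolases, 7 varied. In limma over all genes 1 of the 16 rose and 0 fell, where 2.39% of all genes rose and 1.64% fell. Ddhd2, a phospholipase and triglyceride hydrolase known from the nervous system, was at 9.86, 9.68, 9.72 and 9.76 in KO and at 9.56, 9.54, 9.55 and 9.59 in WT (0.20, limma adjusted p = 0.0499). It passed among varying genes (0.0261) but not there with the replicate block (0.0535). Abhd6 (0.20), which did not pass over all genes, passed among varying genes (limma adjusted p = 0.0313) but not there with the block (0.0528). Pnpla7, a lysophospholipase (-0.50, adjusted p = 0.280), and Pnpla3, a relative of Pnpla2 (-0.30, adjusted p = 0.518), did not pass.

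In glycerol handling 4 of 7 genes varied, and 1 of the 7 rose and 0 fell over all genes. Gpd1, which makes glycerol-3-phosphate for re-esterification, was at 10.48, 10.47, 10.62 and 10.33 in KO and at 10.04, 9.87, 9.78 and 9.70 in WT. Every KO array lay above the WT range, and the difference was 0.63 ± 0.09 (SE, n = 4 each; limma adjusted p = 0.0294). Pdk4, the pyruvate dehydrogenase kinase of the fasted state, was at 10.69 ± 0.52 in KO and 11.44 ± 0.18 in WT, a difference of -0.75 that did not pass (adjusted p = 0.168).

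**Figure D4:**
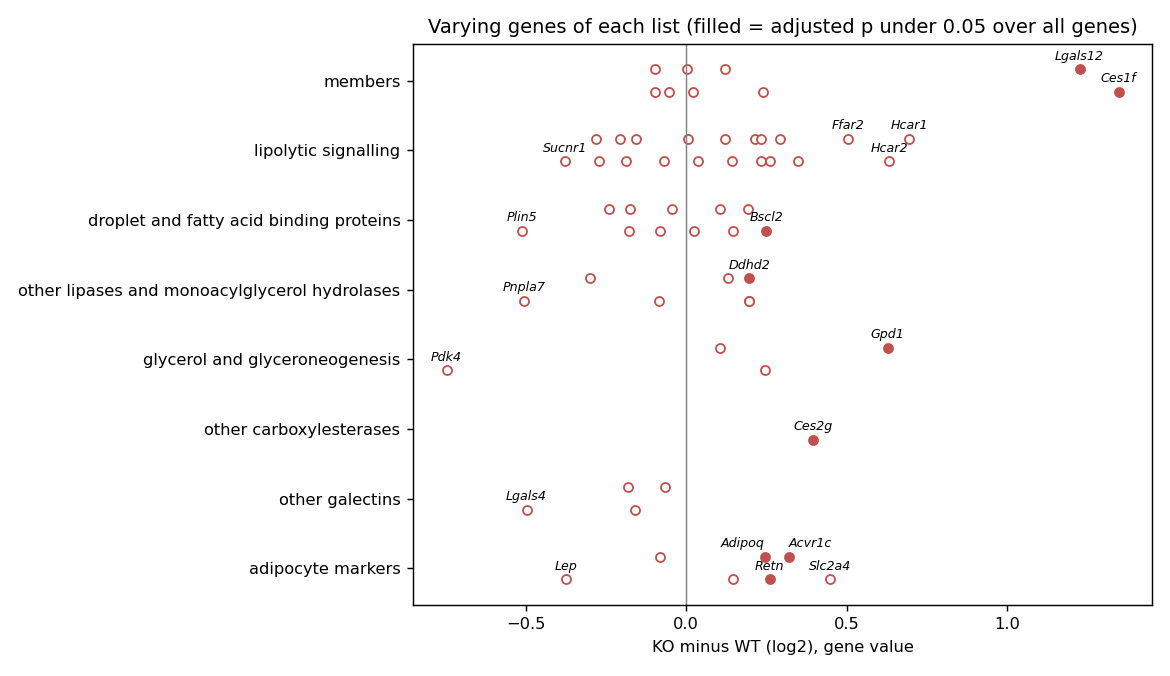
KO minus WT difference in log2 signal (horizontal axis) for the varying genes of each list, 1 point per gene, filled where the limma adjusted p over all genes was under 0.05. The members' row holds Lgals12 and Ces1f beyond 1.2, and the farthest filled point of the 7 other lists plotted is Gpd1 at 0.63.

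Adipocyte markers also moved with genotype. Of 8 measured markers 3 rose and 0 fell in limma over all genes: the adipokines Adipoq (0.25, adjusted p = 0.0486) and Retn (0.26, adjusted p = 0.0465) and the receptor Acvr1c (0.32, adjusted p = 0.04996). Adipoq was lost among varying genes with the replicate block (0.0534). Lep (-0.38), the glucose transporter Slc2a4 (0.45) and Pparg (-0.08) did not pass over all genes, and the markers did not all differ in the same direction. Among varying genes Slc2a4 passed without and with the replicate block (limma adjusted p = 0.0181 and 0.0408). Lep passed there only with the block (limma adjusted p = 0.0331). The summed linear signal of the 8 markers was 51289 to 54129 in KO and 47110 to 48467 in WT, without overlap. Relative to Adipoq alone in the same array, Ces1d differed between the genotypes by -0.007, Ces1f by 1.10 and Lgals12 by 0.98. Relative to the mean of all 8 measured markers, Ces1d differed by 0.12, Ces1f by 1.23 and Lgals12 by 1.11. The value for Ces1d thus depends on the marker used, and what adipocyte content contributed was not tested.

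Markers of other cells were summed in the same way. Of 6 endothelial markers 1 fell, Esam (-0.33, limma adjusted p = 0.0381), while Pecam1 had the largest difference and did not pass (-0.61, adjusted p = 0.136), and their sum was 3792 to 4411 in KO and 4420 to 5127 in WT. Of 6 progenitor and fibroblast markers 1 rose, Clec3b (0.71, limma adjusted p = 0.0437), while Pi16 did not pass (0.50, adjusted p = 0.421), with sums of 11917 to 15331 in KO and 12464 to 16044 in WT. For skeletal muscle 0 of 8 passed, and the sum was 1170 to 9461 in KO and 1375 to 7328 in WT, high in numbers 1 and 2 of both genotypes, with Myh4 (1.13) and Actn3 (0.33) the largest differences. Of 8 macrophage, 7 lymphocyte and 5 brown and beige markers, 8, 2 and 3 varied. In limma over all genes 0 of these markers passed, with 0, 1 and 1 at an unadjusted p under 0.05. All 6 epithelial markers, Krt18 and Cdh1 among them, were near constant, between 6.10 and 6.80. The largest differences in these lists that did not pass were Cd163 (0.56) and Adgre1 (0.52) for macrophages, Cd3g (0.72) and Cd3d (0.43) for lymphocytes, and Cox8b (0.54) and Cox7a1 (0.27) for brown and beige fat. When only varying genes were tested, Pecam1 and Cox8b did pass (limma adjusted p = 0.0396 and 0.0449, or 0.0377 and 0.0301 with the replicate block). The endothelial markers Esam, Tek (-0.22) and Cdh5 (-0.25) passed there as well (limma adjusted p = 0.0124, 0.0256 and 0.0424). With the block Cdh5 did not (0.0761), whereas Esam and Tek did (0.0371 and 0.0464). Kdr (-0.16) and Emcn (-0.01) passed in neither fit. The part of these cell types in the results for Ces1f and Lgals12 was not tested.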

How the data were processed

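Total RNA from 8 inguinal fat samples (100 ng) was amplified and biotin-labelled for a 3' array, per the labels' protocols. The authors deposited 45101 log2 values per array. The only tool is R 2.14.0, per the submitters' processing notes. The handling of background, normalisation and summary is not given in the sources used here. That scale was read from the values. The platform annotation paired 34945 probe sets with 1 gene. KO and WT were compared with limma 3.58.1 in R 4.3.3 (lmFit and eBayes, two-sided, Benjamini-Hochberg over 18193 genes, threshold 0.05), and checked on simulated data. The number of arrays limits precision.

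The members and gene lists were chosen with earlier results of these data known. The genes named are the members, the genes of each list that passed and its 2 largest differences, the closest profiles of each member (3 were sought), and Lpar4. The Ces1 neighbours, Pparg and the other listed genes outside that rule were named after their values were seen. Of 157 listed genes, 138 were measured. Same-numbered KO and WT arrays deviated together across genes (r = 0.315, 0.486, 0.189 and 0.244, all over 0.1), so a replicate block was also fitted. Some arrays of different number did so too: KO 3 with WT 4 (0.364), KO 4 with WT 3 (0.266), KO 2 with WT 1 (0.220) and KO 1 with WT 2 (0.107). Pairs joining numbers 1 or 2 with 3 or 4 were negative (-0.421 to -0.202). The values thus do not single out pairing by number, and the pairing comes from the data alone. Alternatives covered that block, dim genes, varying genes, probe set choice, normalisation, the prior and each array left out.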

Additional observations from a re-analysis of the deposited data

Results flagged for a closer look

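In 10 of 90 groups of 4 arrays that were checked, 1 array lay well apart; about 1 group in 20 would show this by chance. Among the members, Abhd5 was low in WT 4 (9.90, others 10.29 to 10.31) and G0s2 was low in KO 4 (10.81, others 11.16 to 11.18) and in WT 3 (10.26, others 11.38 to 11.53). Ces1d was high in KO 1 on 1435370_a_at (12.68, others 12.11 to 12.13) and on 1435371_x_at (9.80, others 9.49 to 9.54). Among listed genes, Slc2a4 was low in WT 1 (9.29), Adgre1 was high in KO 4 (9.14), Cd3d was high in KO 4 (7.24) and in WT 1 (7.08), and Cd3g was high in WT 1 (6.91).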

How the results depend on the processing

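Of 18193 genes 733 passed (434 higher, 299 lower); with the replicate block limma called 0, with 3703 at an unadjusted p under 0.05, and among varying genes 1402 did, or 1011 with the block. Leaving out each array in turn gave 10 to 253 genes. The number of members called, 2, was 0 with the replicate block, 1 with probe sets tested on their own, 1 with a block that separates numbers 1 and 2 and numbers 3 and 4, and 0 to 1 with an array left out. It stayed at 2 among varying genes with or without the block, among brighter genes, after quantile normalisation, with the mean of probe sets and with an intensity trend. The members called in these fits were Ces1f and Lgals12, which had been chosen for this difference, so nothing is read from these counts. Leaving out arrays gave Pnpla2 -0.0144 to 0.0256, Mgll -0.0060 to 0.0466 and G0s2 -0.401 to 0.0232. Pnpla2 turned sign without KO 2 (-0.01), KO 4 (-0.01), WT 2 (-0.01) and WT 4 (-5.72e-05), Mgll without WT 1 (-0.0060), and G0s2 without WT 1 (0.02) and WT 2 (0.02). Centring each array on adipocyte markers was added after seeing the data, first with 5 markers (Adipoq, Retn, Slc2a4, Pparg and Acvr1c), which left out Lep (lower in KO), Cidec and Fabp4, and then with all 8 measured. The marker mean was 0.24 higher in KO with 5 markers and 0.12 with 8, and the median of all genes moved to -0.24 and -0.12, so that 15951 and 15549 genes were called by construction, and 6 and 4 members. With 5 markers Ces1f was 1.11 and Lgals12 0.99, and Pnpla2 (-0.24), Mgll (-0.22), Abhd5 (-0.12) and Ces1d (-0.00092) turned sign. With 8, Ces1f was 1.23 and Lgals12 1.11, and only Pnpla2 (-0.12) and Mgll (-0.10) of the 9 did. Signal over background was not analysed here. The causes of the other changes were not tested.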
